A study of Daphnia magna with 230 samples.

Results

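Whole-body gene expression was compared between laboratory water with and without pyriproxyfen, in neonates of the water flea Daphnia magna. The members were the 5 libraries titled Lab Water-119 ng/L, the nominal pyriproxyfen concentration, and the 5 titled Lab Water-0 ng/L, which were 10 of the 230 libraries of the series. Each library held a pool of 5 neonates taken after 96 h, and all 10 carry the same season label, Summer, and the same animal source. The study exposed 30 neonates per treatment in separate small beakers and then divided the survivors of a treatment at random into 5 pools. A pool is therefore not a beaker, and the pools of a treatment shared its water. Every p-value for laboratory water below measures only the spread between pools. The pyriproxyfen stock was made in ethanol, and the laboratory water without pyriproxyfen was, by the study's methods, water alone, so that any change from the carrier and from pyriproxyfen cannot be told apart in this comparison. In the wetland waters the unspiked treatment did receive the carrier. Below, the Lab Water-119 libraries are called exposed and the Lab Water-0 libraries control. Beside them stand 5 libraries titled Lab Water-239 ng/L, 24 of wetland water spiked to the same concentration as the exposed libraries and 30 of unspiked wetland water. There are also 21 laboratory controls of the stormwater experiment (SCSU controls), which had no pyriproxyfen. The SCSU controls carry Spring, Early Summer and Late Summer labels, with a further set of library codes in late summer. The study names another genetic background for their experiment.

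Pyriproxyfen is an insecticide that acts as a juvenile hormone analog. In crustaceans the natural hormone is methyl farnesoate, which binds the methoprene-tolerant receptor, and in Daphnia exposure of mothers to the hormone or its analogs leads them to produce male offspring. Growth in Daphnia proceeds by moults. Pulses of ecdysteroids are read by nuclear receptors, the old cuticle is digested, and a new cuticle of chitin and cuticle proteins is laid down and hardened.

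Total deposited counts were 7245228 to 14059281 in the exposed libraries and 10112520 to 13070502 in the control libraries. The limit that a count of 0 allows, 3 counts, corresponded to 0.213 to 0.414 CPM (counts scaled to a total of 1e+06), and counting error is the only error this limit covers. Levels below are CPM of the deposited total, and since transcript lengths were not used, a level is compared between groups and not between transcripts. The labelled tissue is the whole body. Of the transcripts checked as tissue markers, Dapma7bEVm000343t1, a vitellogenin-1 precursor (yolk protein), was present in every library, at 74.1 to 193 CPM in the exposed and 37.3 to 879 CPM in the control libraries. The 3 transcripts named as alpha skeletal muscle actin were at or near 0. Whole animals contain muscle, so these 3 could not serve as a muscle marker, and nothing about muscle is read from them. Dapma7bEVm016586t1 had 0.495 to 1.56 CPM in the exposed and 0 to 0.0989 CPM in the control libraries (log2 fold change 4.34 ± 0.71 SE, adjusted p = 0.00243), Dapma7bEVm017871t1 had 0.2 to 0.495 CPM in the exposed libraries and 0 in every control library, and Dapma7bEVm029133t1 was above 0 in 1 control library only. In a whole-body library, fewer cells of a type and less RNA per cell cannot be told apart.

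The first principal component of log2(CPM + 1) carried 53.3% of the variance and placed the exposed libraries at -85.6 to -57.6 and the control libraries at 21.9 to 96.7. The second component (22.3%) divided the controls. Control replicates 1 and 2 were at 74.4 and 91.8 there, and replicates 3, 4 and 5 at -56.4 to -19.0, while the exposed libraries ranged over -61.1 to 17.7. The water, concentration and season labels are the same for all 5 controls. The sequencing sample numbers in the library codes were lowest in control replicates 1 and 2, at 30 and 35. Control replicates 3, 4 and 5 had 38, 40 and 65, and a link to the split was not tested. Many of the transcripts described below were lower in control replicate 2 than in the other controls.

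**Figure D1:**
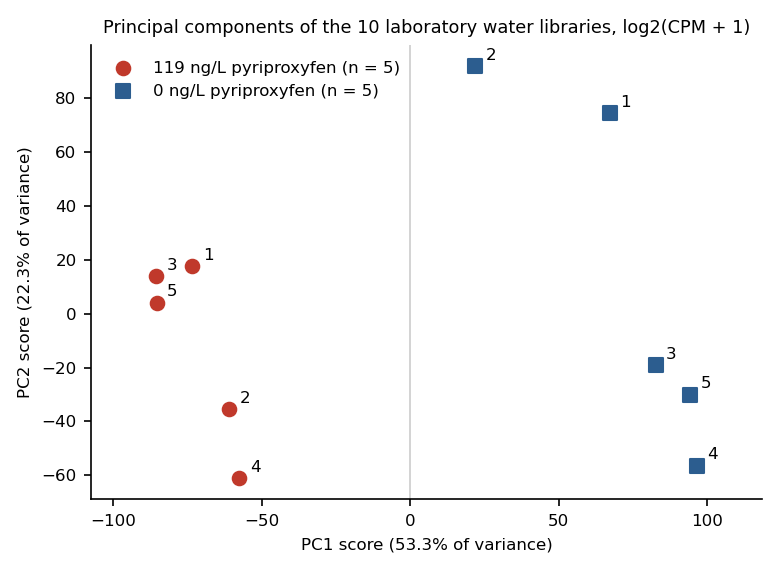
Principal components of log2(CPM + 1) over the 10 laboratory water libraries, component 1 (53.3% of variance) on the horizontal and component 2 (22.3%) on the vertical axis, with each point a library labelled by its replicate number. Exposed libraries lie at -85.6 to -57.6 on component 1 and controls at 21.9 to 96.7, with control replicates 1 and 2 apart from the other controls on component 2.

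Of 24858 transcripts tested, 1186 were differentially expressed (DEGs, edgeR adjusted p below 0.05 and absolute log2 fold change above 2). Among them 401 (1.61% of transcripts tested) were higher and 785 (3.16%) lower in the exposed libraries. The exposed and control values did not overlap for 371 of the higher and 563 of the lower DEGs. Over all transcripts tested, all 5 exposed values lay above all 5 control values for 5.72% and below them for 4.59%. The median log2 fold change was 3.65 over the higher DEGs and -4.63 over the lower DEGs, against 0.0069 over all transcripts tested. Leaving out 1 library at a time gave 926 DEGs without exposed replicate 5 and 1414 without control replicate 2, and 831 of the 1186 (70.1%) were called in every one of the 10 fits.

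Together the called transcripts held a measurable share of the counts. Those called higher made up 60942, 35307, 61041, 49116 and 56644 CPM in exposed replicates 1 to 5, against 1837, 3873, 2680.2, 2829 and 2415 CPM in control replicates 1 to 5. Those called lower made up 3428, 2182, 2753, 2270.5 and 2325 CPM in the exposed libraries and 57632, 28023, 56162, 75753 and 63746 CPM in the controls. These sums describe transcripts chosen by the same contrast and carry no test. The spread between pools also differed by direction: among the lower DEGs the median standard deviation of log2(CPM + 1) was 0.285 in the exposed and 0.895 in the control libraries, among the higher DEGs it was 0.53 in the exposed and 0.345 in the control libraries, and over all transcripts tested it was 0.247 in the exposed and 0.233 in the control libraries.

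The largest rises among DEGs averaging at least 10 CPM with no overlap were mostly in proteins without a known role. Dapma7bEVm009453t1, a conserved protein, had 1516, 689, 1015, 1246 and 1205 CPM in the exposed libraries and 0, 0, 0.442, 0.926 and 0.153 CPM in the controls (log2 fold change 11.69 ± 0.98 SE, adjusted p = 7.55e-05). It was near 0 in every control library and in every exposed library far above any control. Dapma7bEVm023092t1, also a conserved protein, had 116.2, 52.9, 75.2, 67.6 and 124.9 CPM in the exposed libraries, against a single control library above 0 with 0 to 0.171 CPM as the control range. The ratio of exposed to control counts, each pooled over 5 libraries and scaled by their totals, was 2592 with a counting interval of 717 to 21409. Dapma7bEVm009165t1, uncharacterized, had 51.2 to 199 CPM in the exposed and 0 to 0.0989 CPM in the control libraries (log2 fold change 10.51 ± 0.59 SE, adjusted p = 3.17e-06), and Dapma7bEVm028425t1, uncharacterized, had 150.3 to 262 CPM in the exposed and 0 to 0.463 CPM in the control libraries (log2 fold change 10.01 ± 0.74 SE, adjusted p = 2.9e-05).

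Of the 5 largest rises, the one with a descriptive name was Dapma7bEVm027813t1, a Kunitz-type protease inhibitor, one of a family of small proteins that block serine proteases. It had 20.6, 6.9, 72.0, 9.53 and 49.0 CPM in the exposed libraries and 0 in every control library, which made it at least 106.6-fold higher against the highest per-library limit (adjusted p = 0.0149). Without exposed replicate 1 and control replicate 5 together, the libraries whose codes carry a sequencing sample number above 60, its adjusted p was 0.0799.

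The largest falls were of a similar size. Dapma7bEVm003799t1, named fibrinogen and fibronectin, was at 0 in all 5 exposed libraries and at 33.3, 11.6, 97.5, 112.5 and 139.7 CPM in the controls, at least 191-fold lower (adjusted p = 0.00758). Dapma7bEVm015395t1, uncharacterized, had 0, 0.552, 0.195, 0.0711 and 0.2 CPM in the exposed and 192, 3.56, 1214, 1853 and 1836 CPM in the control libraries (log2 fold change -12.43 ± 1.86 SE, adjusted p = 0.00294). Dapma7bEVm011166t1, a conserved protein, had 0.594, 0.552, 0.778, 0.498 and 0.3 CPM in the exposed and 287, 2.87, 1064, 2599.8 and 1739 CPM in the control libraries (log2 fold change -11.09 ± 1.67 SE, adjusted p = 0.00307). In both of the last transcripts control replicate 2 was the lowest control by a wide margin and control replicate 1 the next, yet neither reached the exposed range.

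Dapma7bEVm001220t1, uncharacterized, was found by a single count in the exposed libraries and had 295, 48.9, 7.95, 158.9 and 61.5 CPM in the controls. The ratio of control to exposed counts, each pooled over 5 libraries and scaled by their totals, was 6024, with a counting interval of 1081 to 237964. Dapma7bEVm000563t1, a conserved protein, was at 0 in every exposed library and at 58.2, 5.93, 3.71, 53.7 and 17.3 CPM in the controls, at least 67.1-fold lower (adjusted p = 0.0265). This call was not stable: without control replicate 1, 4 or 5 the adjusted p was 0.0543, 0.0552 and 0.0707.

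Lists of transcripts with related names were then counted. The names come from the study's own tables, most of which list its DEGs of this same contrast, so a high share of DEGs in a list follows in part from how the names were obtained and is not independent evidence. Of the 1186 DEGs, 484 had a descriptive name. The study's tables hold an entry for 1993 transcripts, and 1178 of the 1186 DEGs are among them. Over all transcripts tested the shares were 1.61% higher and 3.16% lower, with a median log2 fold change of 0.0069. A list above these shares is therefore not shown to differ from the other named transcripts.

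**Figure D2:**
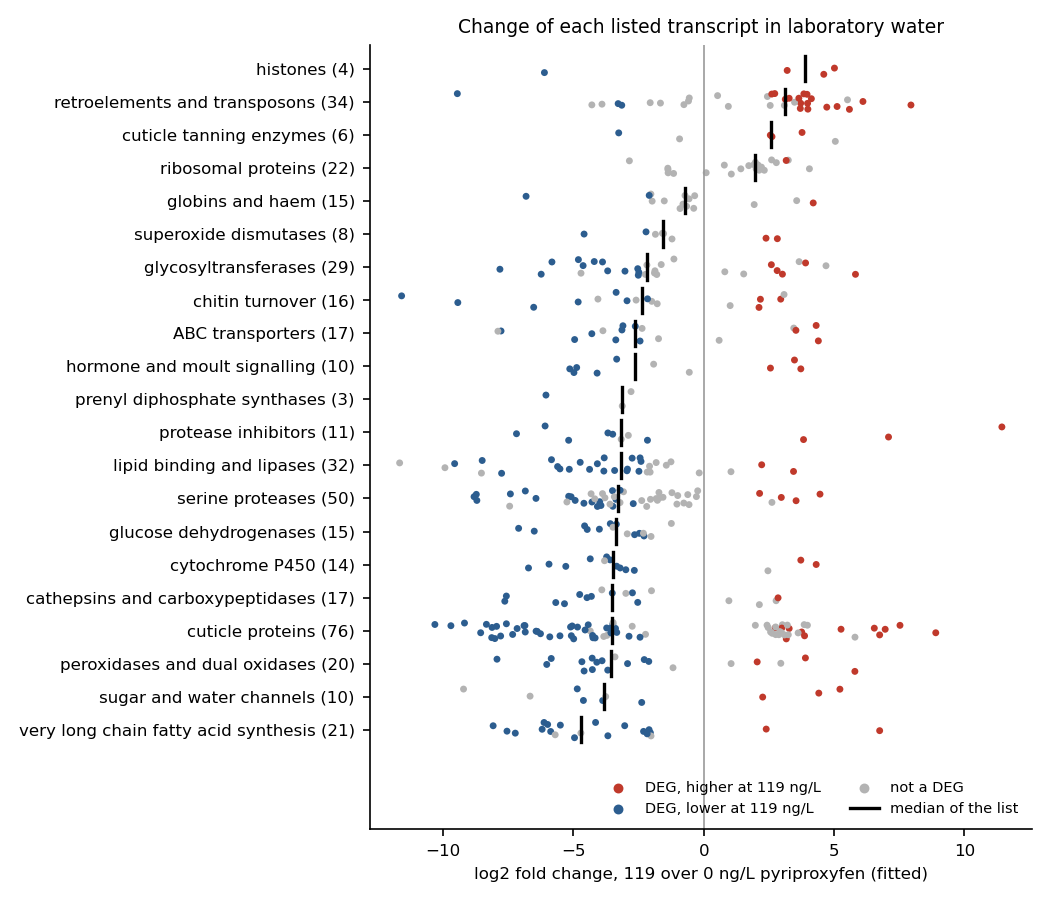
Fitted log2 fold change (exposed over control) of each transcript in 21 lists, with the number tested in parentheses, red for DEGs higher in exposed libraries, blue for DEGs lower, grey for other transcripts and a black bar at each list's median. Medians lie between -4.71 for very long chain fatty acid synthesis and 3.91 for histones, or 0.48 for histones with the members at 0 in one group set at their bound.

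All 10 transcripts of the hormone and moult signalling list were examined. The list comprised nuclear receptors, an eclosion hormone and cytochromes P450 305a1 and 307a1. A transcription factor of the doublesex family and a binding protein of insulin-like peptides completed it. In the exposed libraries 3 rose and 5 fell, and 6 of the 10 had no overlap between the groups. Their median log2 fold change was -2.63.

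The 3 that rose were a secreted signal, an enzyme and a transcription factor. Dapma7bEVm007374t1, eclosion hormone, which in insects triggers the shedding of the old cuticle, had 32.3, 3.73, 8.95, 26.1 and 23.7 CPM in the exposed and 1.46, 1.38, 2.47, 1.62 and 1.07 CPM in the control libraries. All exposed values lay above all control values, with exposed replicate 2 closest to them (log2 fold change 3.48 ± 0.55 SE, adjusted p = 0.00283). Dapma7bEVm007241t1, cytochrome P450 305a1, had 209.7, 65.6, 115.5, 163 and 155.8 CPM in the exposed libraries, against 11.3, 5.64, 10.9, 10.3 and 12.5 CPM in the controls. The ratio of means was 14.01 (log2 fold change 3.73 ± 0.33 SE, adjusted p = 4.8e-05), and exposed replicate 2 was again the lowest of its group. Dapma7bEVm005257t1, transcription factor 3 of the doublesex- and mab-3-related group, belongs to a family that directs sexual development in many animals, and doublesex drives male traits in Daphnia. It had 85.2, 40.9, 162, 50.8 and 136.8 CPM in the exposed and 16.4, 13.8, 13.3, 14.7 and 18.9 CPM in the control libraries. The control values were tightly grouped, while the exposed values were spread, lowest in replicate 2 and highest in replicate 3 (log2 fold change 2.56 ± 0.39 SE, adjusted p = 0.00213).

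The 5 that fell included 4 nuclear receptor transcripts. Dapma7bEVm009766t1, dHR96, whose Drosophila counterpart responds to lipids and foreign compounds, had 2.77, 3.31, 1.95, 1.92 and 0.499 CPM in the exposed and 61.7, 27.0, 60.5, 67.5 and 69.5 CPM in the control libraries. The control mean was 27.4 times the exposed mean, and control replicate 2 was the lowest of its group (log2 fold change -4.87 ± 0.45 SE, adjusted p = 9.69e-05). Dapma7bEVm010556t1, nuclear receptor subfamily 6 group A member 1, had 3.57, 1.24, 1.75, 2.28 and 2.1 CPM in the exposed and 35.7, 16.9, 30.0, 52.3 and 42.6 CPM in the control libraries (log2 fold change -4.09 ± 0.36 SE, adjusted p = 5.1e-05). Dapma7bEVm028386t1, hormone receptor hr3, which in Drosophila is induced by ecdysone and times later steps of the moult, had 0.396, 0, 0, 0.356 and 0.0998 CPM in the exposed and 11.2, 2.27, 3.71, 3.01 and 8.57 CPM in the control libraries. Every exposed library was below 1 CPM and every control library above it (log2 fold change -4.98 ± 0.75 SE, adjusted p = 0.00166).

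Dapma7bEVm004624t1, ecdysone-induced protein 78C, another ecdysone-responsive nuclear receptor of Drosophila, had 0, 0.414, 0.195, 0.213 and 0.0998 CPM in the exposed and 0.257, 0, 8.84, 8.02 and 14.001 CPM in the control libraries. Control replicates 1 and 2 lay within the exposed range, and the fall (log2 fold change -5.14 ± 1.37 SE, adjusted p = 0.0447) rested on control replicates 3, 4 and 5. Leaving out control replicate 3, 4 or 5 gave adjusted p of 0.0844, 0.0808 and 0.0913, and leaving out exposed replicate 1, 2, 3, 4 or 5 gave 0.1, 0.0757, 0.106, 0.0956 and 0.114. Dapma7bEVm010925t1, cytochrome P450 307a1, named for the Drosophila enzyme spook of ecdysteroid synthesis, had 1.09, 0.828, 0.973, 1.99 and 0.499 CPM in the exposed and 3.6, 1.68, 10.2, 20.1 and 16.4 CPM in the control libraries. Control replicate 2 fell inside the exposed range and control replicates 3 to 5 were the highest (log2 fold change -3.34 ± 0.66 SE, adjusted p = 0.0101). Its adjusted p was 0.062 without both libraries of sample number above 60.

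The remaining pair was not called. Dapma7bEVm005219t1, retinoid x receptor, the counterpart of the ultraspiracle partner of the ecdysone receptor, had 38.4, 15.7, 18.7, 18.3 and 20.97 CPM in the exposed and 23.2, 30.5, 38.3, 42.5 and 22.3 CPM in the control libraries, with overlapping groups (log2 fold change -0.55 ± 0.28 SE, adjusted p = 0.278). Dapma7bEVm015483t1, neural/ectodermal development factor IMP-L2, which binds insulin-like peptides in Drosophila, had 14.8, 12.1, 19.1, 15.9 and 20.7 CPM in the exposed and 198, 22.2, 19.8, 22.5 and 25.5 CPM in the control libraries. Control replicate 1 stood far above the other 4 controls, which overlapped or neighboured the exposed range (log2 fold change -1.92 ± 0.74 SE, adjusted p = 0.157).

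**Figure D3:**
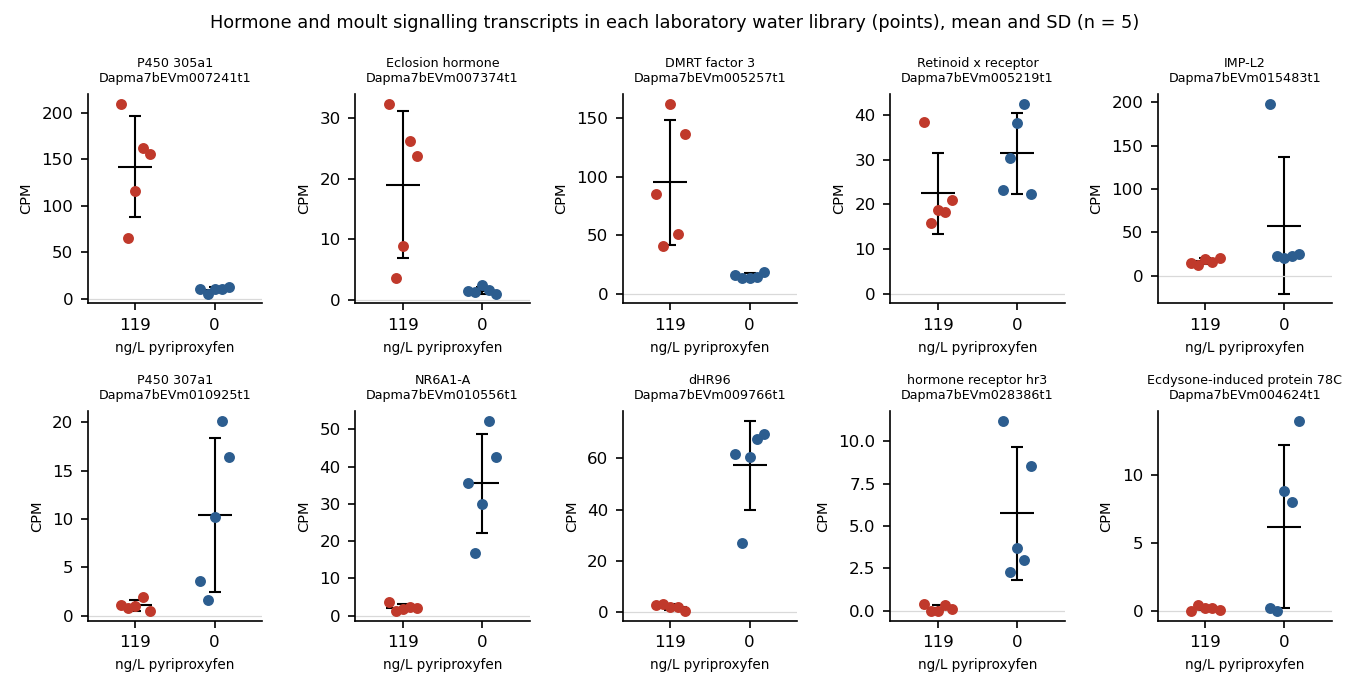
CPM of the 10 hormone and moult signalling transcripts in each laboratory water library, with exposed libraries (red) left of controls (blue) and black lines for the mean and SD of 5 libraries. Eclosion hormone, cytochrome P450 305a1 and the doublesex-related factor are above the controls in all 5 exposed libraries, and IMP-L2 has 1 control library at 198.4 CPM.

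Cuticle proteins were the longest list. Of 76 transcripts, 12 rose and 40 fell in the exposed libraries, and 58 had no overlap between groups. The median log2 fold change was -3.52, or -3.48 with the member at 0 in one group set at its bound. Yet in CPM of the deposited total, the summed level of the list was higher in every exposed library than in any control. It was 6793, 6128, 6649, 7070.4 and 6608 CPM in the exposed and 5958, 4309, 4485, 3313 and 3708 CPM in the control libraries. The scaling (TMM) factors of the fits were 0.929 in control replicate 1, and 1.02 and 1.14 in exposed replicates 2 and 4. Divided by these factors, the sum of control replicate 1 lay above those of exposed replicates 2 and 4, so the groups overlapped. Control replicate 2 weighed on the rises: without it 29 transcripts were called higher, against 12 with it.

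Dapma7bEVm011304t1, a cuticular protein 27 precursor, had 710.0, 751, 473, 906 and 687 CPM in the exposed and 2.23, 1.78, 1.33, 0.926 and 0.612 CPM in the control libraries. The ratio of means was 513, and no control library exceeded 3 CPM (log2 fold change 8.90 ± 0.42 SE, adjusted p = 3.49e-07). Dapma7bEVm015166t1, a pupal cuticle protein, had 961, 467, 1169, 693 and 865 CPM in the exposed and 136.5, 452, 44.4, 12.5 and 21.3 CPM in the control libraries. The groups did not overlap, but control replicate 2 came close to the lowest exposed library and the change was not called (log2 fold change 2.57 ± 0.94 SE, adjusted p = 0.135); without control replicate 2 the log2 fold change was 3.83 with adjusted p = 0.012. Dapma7bEVm003949t1, a cuticular protein analogous to peritrophins 1, a family with chitin-binding domains, had 1.49, 2.21, 1.26, 0.854 and 1.8 CPM in the exposed and 272, 123.7, 108.1, 217 and 127.2 CPM in the control libraries. Its exposed values were all under 3 CPM and no control value was below 108.1 (log2 fold change -6.89 ± 0.43 SE, adjusted p = 4.1e-06). Dapma7bEVm015400t1, a cuticular protein analogous to peritrophins 3, had 172, 90.1, 142.4, 183 and 180.0 CPM in the exposed and 1513, 633, 652, 523 and 583 CPM in the control libraries (log2 fold change -2.44 ± 0.34 SE, adjusted p = 0.000864). Control replicate 1 was the highest by more than 2-fold, and in a fit of all 69 libraries of the wetland experiment the adjusted p was 0.0868.

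Of 16 transcripts of chitin turnover, 3 rose and 7 fell (median log2 fold change -2.37, or -2.07 with the member at 0 in one group set at its bound). Dapma7bEVm001857t1, a chitinase 5 precursor, one of the enzymes that digest the old cuticle before a moult in insects, had 0.991, 0.276, 0.292, 0.285 and 0.998 CPM in the exposed and 58.3, 1.78, 264, 1127 and 457 CPM in the control libraries (log2 fold change -9.43 ± 1.66 SE, adjusted p = 0.00711). The controls differed among themselves by more than 2 orders of magnitude, with replicate 2 nearest to the exposed values. Without both libraries of sample number above 60 its adjusted p was 0.0529. Dapma7bEVm009900t1, UDP-N-acetylhexosamine pyrophosphorylase, which makes the activated sugar from which chitin is built, moved the other way, with 996, 180.0, 537, 499 and 485 CPM in the exposed and 128.7, 160.99, 123.1, 78.8 and 75.7 CPM in the control libraries (log2 fold change 2.18 ± 0.41 SE, adjusted p = 0.00684). Without exposed replicate 1, its highest library, the log2 fold change was 1.78 with adjusted p = 0.0094, under the fold limit of a DEG. Dapma7bEVm011550t1, glucosamine-6-phosphate isomerase, of amino sugar breakdown, had 63.6, 59.3, 56.5, 54.3 and 51.0 CPM in the exposed and 261, 213, 194, 218 and 184 CPM in the control libraries. The groups were tight and apart, and its log2 fold change of -1.99 ± 0.15 SE (adjusted p = 1.71e-05) lay just inside the fold limit; it passed that limit without exposed replicate 1 or 2 (-2.08 and -2.04) or control replicate 2, 3 or 5 (-2.03, -2.04 and -2.05).

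Cuticle tanning enzymes, listed by name as enzymes of tyrosine, dopamine and beta-alanine metabolism and oxidases that supply or use the compounds that harden and darken cuticle, were 6 in number, with 3 higher and 1 lower in the exposed libraries (median log2 fold change 2.59, or 1.52 with the member at 0 in one group set at its bound). Dapma7bEVm003754t1, tyrosine aminotransferase, had 590.2, 133.2, 407, 280.3 and 319 CPM in the exposed and 53.4, 71.1, 52.1, 45.9 and 45.4 CPM in the control libraries (log2 fold change 2.62 ± 0.35 SE, adjusted p = 0.0007). Dapma7bEVm027964t1, aromatic-L-amino-acid decarboxylase, which makes dopamine, had 44.5, 2.9, 20.9, 21.2 and 26.9 CPM in the exposed and 1.63, 2.08, 1.5, 0.926 and 1.99 CPM in the control libraries (log2 fold change 3.77 ± 0.60 SE, adjusted p = 0.00327). Exposed replicate 2 was the lowest exposed library for both. Dapma7bEVm004775t1, 4-hydroxyphenylpyruvate dioxygenase, which leads tyrosine into breakdown, was lower, with 7.23, 4.42, 0.584, 4.13 and 3.99 CPM in the exposed and 58.8, 64.9, 27.7, 11.3 and 22.3 CPM in the control libraries (log2 fold change -3.26 ± 0.67 SE, adjusted p = 0.0138). Another transcript of that name, Dapma7bEVm027935t1, had a log2 fold change of 5.05 and was not called (adjusted p = 0.0872). The third riser of the list was Dapma7bEVm027941t1, aspartate 1-decarboxylase, which makes beta-alanine, with a log2 fold change of 2.56 (adjusted p = 0.00657).

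Among 50 serine proteases 4 rose and 19 fell (median log2 fold change -3.29, or -3.14 with the members at 0 in one group set at their bound), and 17 had no overlap. The count of 4 fell to 2 without control replicate 1, 3 or 5 or without exposed replicate 3 or 5. Dapma7bEVm000215t1, a clip-domain serine protease, of a class that runs proteolytic cascades in arthropod immunity and development, had 4.66, 1.52, 3.02, 1.35 and 3.39 CPM in the exposed and 411, 187, 190.2, 216 and 145.2 CPM in the control libraries (log2 fold change -6.43 ± 0.51 SE, adjusted p = 3.23e-05). Dapma7bEVm003644t1, named melanization protease 1, had 0.198, 0, 0, 0.0711 and 0 CPM in the exposed and 46.8, 13.3, 17.6, 45.3 and 20.7 CPM in the control libraries (log2 fold change -8.81 ± 0.73 SE, adjusted p = 4.84e-05). The exposed values of these transcripts were low in every pool. Dapma7bEVm010618t1, another clip-domain protease and the one with the most reads in the list, had 10.4, 242, 12.5, 92.9 and 14.4 CPM in the exposed and 17.99, 0.0989, 1591, 1449 and 2109.9 CPM in the control libraries. Both groups spread widely, control replicate 1 lay inside and control replicate 2 below the exposed range, and no change was called (log2 fold change -3.88 ± 1.84 SE, adjusted p = 0.252).

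Protease inhibitors numbered 11, of which 3 rose and 6 fell. Dapma7bEVm003446t1, a Kunitz-type inhibitor like Dapma7bEVm027813t1 above, had 95.1, 24.2, 183, 47.6 and 174 CPM in the exposed and 1.03, 0.494, 0.972, 0.386 and 0.765 CPM in the control libraries, 143.9-fold by the means (log2 fold change 7.09 ± 0.71 SE, adjusted p = 0.000238). Serine protease inhibitor Dapma7bEVm008766t1 had 0.297, 0.276, 0, 0.356 and 0.0998 CPM in the exposed and 23.98, 12.4, 19.97, 4.86 and 8.72 CPM in the control libraries (log2 fold change -6.08 ± 0.63 SE, adjusted p = 0.000149). Members of the list moved in both directions, each of these without overlap.

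Peroxidases cross-link proteins with hydrogen peroxide in egg shells and cuticle. The list of peroxidases and dual oxidases counted 3 higher and 13 lower of 20 (median log2 fold change -3.54), with no overlap for 17. Dapma7bEVm000814t1, a chorion peroxidase precursor, had 1.49, 1.52, 1.07, 0.427 and 0.699 CPM in the exposed and 27.7, 13.3, 24.8, 26.6 and 31.4 CPM in the control libraries (log2 fold change -4.67 ± 0.38 SE, adjusted p = 2.5e-05). Dapma7bEVm027454t1, of the same name, had 0.552 to 1.29 CPM in the exposed and 11.2 to 24.7 CPM in the control libraries (log2 fold change -4.27 ± 0.35 SE, adjusted p = 2.59e-05). An abundant double oxidase with a pair of peroxidase domains, Dapma7bEVm010694t1, was not called, with 90.2 to 377 CPM in the exposed and 115.9 to 899 CPM in the control libraries (log2 fold change -1.18 ± 0.58 SE, adjusted p = 0.266).

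Glucose dehydrogenases, oxidoreductases that use a flavin cofactor, were lower in 10 of 15 and higher in none (median log2 fold change -3.35), but the groups did not overlap for only 3. Their summed level was 30.5, 20.8, 27.5, 22.5 and 23.8 CPM in the exposed and 87.4, 59.3, 314, 341 and 377 CPM in the control libraries, so control replicates 1 and 2 lay between the exposed libraries and the other controls. Leaving out exposed replicate 2, 3 or 5 or control replicate 4 or 5 left 6, 5, 5, 6 and 6 called lower. Dapma7bEVm007225t1 was without overlap, with 2.28, 3.59, 3.5, 3.84 and 4.29 CPM in the exposed and 22.4, 7.12, 14.2, 27.5 and 19.7 CPM in the control libraries (log2 fold change -2.47 ± 0.34 SE, adjusted p = 0.000853).

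Cathepsins and carboxypeptidases, digestive and lysosomal peptidases, counted 1 higher and 10 lower of 17 (median log2 fold change -3.51). Only 5 or 6 were called lower without any 1 of exposed replicates 1 to 5 or of control replicates 3 to 5, and the riser was lost without exposed replicate 1, 3 or 5 or control replicate 3 or 5. Dapma7bEVm010066t1, a cathepsin L peptidase, had 7.23, 8.42, 3.02, 5.48 and 3.69 CPM in the exposed and 36.5, 38.2, 29.4, 39.03 and 31.0 CPM in the control libraries, tightly grouped in both (log2 fold change -2.73 ± 0.27 SE, adjusted p = 8.73e-05). Dapma7bEVm001581t1, cathepsin S, had 0, 0.276, 0.0973, 0.213 and 0.2 CPM in the exposed and 10.5, 0.0989, 28.0, 66.6 and 48.6 CPM in the control libraries. Control replicate 2 was inside the exposed range (log2 fold change -7.63 ± 1.41 SE, adjusted p = 0.00919), and without both libraries of sample number above 60 the adjusted p was 0.0673.

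Of 14 cytochrome P450 transcripts, which oxidise hormones, lipids and foreign compounds, 2 rose and 10 fell (median log2 fold change -3.46). These counts include P450 305a1, which rose, and P450 307a1, which fell, both also counted in the hormone and moult list. The risers were P450 305a1, given above, and Dapma7bEVm002285t1, a P450 with no family in its name, at 103, 38.9, 139.04, 87.5 and 98.6 CPM in the exposed and 5.65, 3.46, 4.68, 3.78 and 4.51 CPM in the control libraries. The ratio of means was 21.1 (log2 fold change 4.32 ± 0.32 SE, adjusted p = 1.53e-05). Dapma7bEVm011039t1, P450 4V2, a fatty acid hydroxylase in mammals, had 3.76, 2.9, 5.16, 3.27 and 3.79 CPM in the exposed and 51.4, 26.2, 39.1, 21.3 and 27.2 CPM in the control libraries (log2 fold change -3.21 ± 0.28 SE, adjusted p = 3.8e-05).

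Very long chain fatty acid synthesis showed the lowest median of the lists. Most of these enzymes elongate, reduce or desaturate fatty acids, and in insects their products include the lipids that waterproof the cuticle. The list also holds sterol desaturases and a sphingolipid desaturase. Of 21 transcripts 2 rose and 16 fell, with a median log2 fold change of -4.71. Summed, they had 313, 206, 146.2, 198 and 199 CPM in the exposed and 3109.7, 1796, 1876, 1789 and 2182 CPM in the control libraries, with no overlap.

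Dapma7bEVm028574t1, an elongation of very long chain fatty acids protein, had 5.05, 0, 0, 0.356 and 1.6 CPM in the exposed and 585, 245, 201, 479.8 and 331 CPM in the control libraries. It was at 0 in exposed replicates 2 and 3 and above 200 CPM in every control (log2 fold change -8.08 ± 1.32 SE, adjusted p = 0.0048). Dapma7bEVm010304t1, a sterol desaturase, had 0.892, 1.1, 0.389, 0.427 and 0.399 CPM in the exposed and 36.8, 17.4, 27.2, 27.1 and 25.7 CPM in the control libraries (log2 fold change -5.50 ± 0.35 SE, adjusted p = 4.1e-06). Dapma7bEVm028493t1, a Z9 acyl-CoA desaturase B, which places a double bond in the fatty acid chain, had 77.4, 83.9, 36.4, 60.5 and 57.5 CPM in the exposed and 379, 248, 247, 158.7 and 310.5 CPM in the control libraries (log2 fold change -2.17 ± 0.28 SE, adjusted p = 0.000574). Without control replicate 1 its log2 fold change was -1.99, just inside the fold limit. Both risers of the list were elongases. Dapma7bEVm005730t1 had a log2 fold change of 2.40 (adjusted p = 0.0189). Dapma7bEVm010982t1 had 32.4, 11.3, 19.4, 36.6 and 41.4 CPM in the exposed and 0.343, 0.198, 0.265, 0.154 and 0.23 CPM in the control libraries, 118.6-fold by the means (log2 fold change 6.75 ± 0.43 SE, adjusted p = 4.1e-06).

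Lipid-binding proteins and lipases counted 2 higher and 19 lower of 32 (median log2 fold change -3.18, or -3.10 with the members at 0 in one group set at their bound), and 12 were lower without exposed replicate 1, 4 or 5, while 1 was higher without exposed replicate 1. Dapma7bEVm005643t1, phospholipase A2 isozyme PA4, which frees fatty acids from phospholipids, had 6.84, 5.24, 9.34, 4.84 and 5.69 CPM in the exposed and 87.5, 36.9, 67.4, 134.1 and 99.4 CPM in the control libraries (log2 fold change -3.82 ± 0.36 SE, adjusted p = 7.96e-05). Dapma7bEVm010156t1, a Cral/trio domain protein, of a family that carries retinoids and other small lipids, had 0.396, 1.1, 0.584, 1.07 and 0.499 CPM in the exposed and 17.7, 8.9, 14.8, 6.25 and 10.6 CPM in the control libraries (log2 fold change -4.08 ± 0.38 SE, adjusted p = 5.38e-05). Vitellogenin-1 precursor, Dapma7bEVm000343t1, was not called, at 112.5, 193, 74.1, 163 and 98.7 CPM in the exposed and 879, 115.3, 37.3, 97.6 and 472 CPM in the control libraries (log2 fold change -1.43 ± 0.79 SE, adjusted p = 0.332). Prenyl diphosphate synthases make the isoprenoid chains from which methyl farnesoate is also built. Of the 3 listed, 1 fell: Dapma7bEVm011651t1, a geranylgeranyl pyrophosphate synthase, was found by a single count in the exposed libraries and had 3.17, 1.78, 2.3, 0.386 and 1.99 CPM in the controls (ratio of control to exposed pooled counts, scaled by their totals, 97.9, counting interval 17.2 to 3901). Without exposed replicate 1 or control replicate 2 or 3 there were 2 called lower.

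Transporters also divided by direction. ABC transporters, which export lipids and foreign compounds with energy from ATP, counted 3 higher and 8 lower of 17 (median log2 fold change -2.62). Dapma7bEVm001756t1, of the G family, had 1.29, 1.52, 1.26, 1.85 and 1.3 CPM in the exposed and 34.7, 18.3, 25.4, 30.7 and 24.4 CPM in the control libraries (log2 fold change -4.29 ± 0.22 SE, adjusted p = 6.38e-07). Dapma7bEVm003476t1, of sub-family A, had 0.297, 0.138, 0.487, 0.285 and 0.0998 CPM in the exposed and 20.8, 3.07, 54.8, 115.6 and 93.2 CPM in the control libraries (log2 fold change -7.78 ± 1.08 SE, adjusted p = 0.00192). The G family member was even across pools, and the A member varied in the controls, where replicate 2 was lowest.

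Sugar and water channels counted 3 higher and 4 lower of 10, and their summed level was 671, 288, 1142, 256 and 607 CPM in the exposed and 106.5, 50.7, 107.8, 180.1 and 151.1 CPM in the control libraries. In the exposed libraries most of this was Dapma7bEVm003185t1, a sugar transporter, with 535, 226, 1051, 199 and 549 CPM in the exposed and 14.6, 12.8, 11.5, 14.04 and 12.2 CPM in the control libraries. The ratio of means was 39.3 (log2 fold change 5.23 ± 0.50 SE, adjusted p = 0.000102). Dapma7bEVm000196t1, named sugar transporter ERD6 after a plant protein, had 0.892, 1.52, 0.681, 1.21 and 1.2 CPM in the exposed and 37.7, 9.69, 7.42, 45.8 and 24.5 CPM in the control libraries (log2 fold change -4.61 ± 0.59 SE, adjusted p = 0.00076).

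Glycosyltransferases, which attach sugars to lipids and proteins, counted 5 higher and 12 lower of 29 (median log2 fold change -2.18). Dapma7bEVm005548t1, a 2-hydroxyacylsphingosine 1-beta-galactosyltransferase, had 0.198, 0.276, 0.487, 0.142 and 0.0998 CPM in the exposed and 23.2, 9.49, 15.6, 21.2 and 17.1 CPM in the control libraries (log2 fold change -6.23 ± 0.41 SE, adjusted p = 5.1e-06). Dapma7bEVm024146t1, named for lactosylceramide, had 16.6, 6.63, 28.2, 8.18 and 17.1 CPM in the exposed and 0.942, 1.09, 0.619, 1.47 and 0.689 CPM in the control libraries (log2 fold change 3.91 ± 0.45 SE, adjusted p = 0.000272).

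Among 15 globin and haem transcripts, 4 stand in the study's DEGs of this contrast, against 74 of 76 cuticle proteins, so the call counts of the lists are not comparable. The 15 summed to 9774, 5390, 7296, 3420 and 7806 CPM in the exposed and 3295, 15136, 19125, 17126 and 15213 CPM in the control libraries. Called were 1 higher and 2 lower of the 15 (median log2 fold change -0.72), and 2 had no overlap. Leaving out control replicate 1 gave 4 lower, leaving out exposed replicate 1, 2, 3 or 4 or control replicate 3 or 4 gave 1 lower, and leaving out control replicate 2 or exposed replicate 4 gave 2 higher. Dapma7bEVm011771t1, a di-domain hemoglobin precursor, of the oxygen carrier dissolved in Daphnia haemolymph, had 5.35, 25.5, 1.85, 7.75 and 15.4 CPM in the exposed and 1.11, 0.791, 0.177, 0 and 0.765 CPM in the control libraries (log2 fold change 4.20 ± 0.90 SE, adjusted p = 0.0161), with an adjusted p of 0.0717 without both libraries of sample number above 60. The other transcripts with this name in the study's tables were not called. Dapma7bEVm002046t1 had a log2 fold change of 1.94. Those of Dapma7bEVm011064t1, Dapma7bEVm015299t1, Dapma7bEVm015367t1, Dapma7bEVm014981t1 and Dapma7bEVm029622t1 were -1.98, -1.51, -0.91, -0.56 and -0.35. Dapma7bEVm027691t1, 5-aminolevulinate synthase, the first enzyme of haem synthesis, overlapped between the groups, at 811 to 3537 CPM in the exposed and 404 to 5137 CPM in the control libraries (log2 fold change -0.72 ± 0.63 SE, adjusted p = 0.528). Dapma7bEVm001221t1 is named heme-binding protein 2 in the study's tables, while the study's text calls it a di-domain hemoglobin precursor. It fell, with 6.64, 25.4, 4.28, 9.96 and 6.69 CPM in the exposed and 309, 35.1, 1409, 2112 and 1765 CPM in the control libraries (log2 fold change -6.81 ± 1.16 SE, adjusted p = 0.006). Control replicate 2 was near the highest exposed library, and without both libraries of sample number above 60 the adjusted p was 0.0533.

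Superoxide dismutases, which turn superoxide into hydrogen peroxide, counted 2 higher and 2 lower of 8, the lower count being 1 without control replicate 1. The one with the most reads, copper-zinc enzyme Dapma7bEVm009708t1, had 12523, 18199, 5711, 12639.8 and 9343 CPM in the exposed and 64689, 27329.9, 13852, 17921 and 34621 CPM in the control libraries. The groups overlapped and the change was not called (log2 fold change -1.54 ± 0.45 SE, adjusted p = 0.0595). Dapma7bEVm007114t1, of the same enzyme family, had 0.297, 0.276, 0.778, 0.285 and 0.499 CPM in the exposed and 16.4, 9.1, 12.02, 4.63 and 7.57 CPM in the control libraries (log2 fold change -4.59 ± 0.44 SE, adjusted p = 6.93e-05).

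Retroelements and transposons, mobile DNA that copies or moves itself, numbered 34, of which 17 rose and 3 fell (median log2 fold change 3.11, or 2.67 with members at 0 in one group set at their bound), and 20 had no overlap. Their summed level was 192, 186, 162, 213 and 166 CPM in the exposed and 86.8, 52.6, 74.8, 139.4 and 78.6 CPM in the control libraries. Dapma7bEVm030404t1, a polyprotein of retroviral origin, had 8.22, 2.9, 9.24, 6.76 and 7.89 CPM in the exposed and 0.171, 0.198, 0, 0 and 0.0765 CPM in the control libraries (log2 fold change 6.11 ± 0.60 SE, adjusted p = 7.96e-05). Dapma7bEVm009932t1, a reverse transcriptase of the long terminal repeat class, moved against the list, with 0.0991, 0.276, 0, 0 and 0.0998 CPM in the exposed and 69.7, 26.6, 46.7, 101.7 and 52.5 CPM in the control libraries (log2 fold change -9.45 ± 0.68 SE, adjusted p = 2.46e-05). In every control library it alone held the larger part of the list's summed level.

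The listed histone and ribosomal protein transcripts were at low levels. Of 4 histone transcripts 3 rose and 1 fell (median log2 fold change 3.91, or 0.48 with the 2 members at 0 in one group set at their bound). The one that fell was Dapma7bEVm008245t1, histone H3.2, a protein that packs DNA, with 0, 0, 0.195, 0.0711 and 0 CPM in the exposed and 6.25, 2.08, 3.62, 3.39 and 6.81 CPM in the control libraries (log2 fold change -6.11 ± 0.65 SE, adjusted p = 0.000149). Dapma7bEVm020577t1, histone H4 protein type G, had 0.594, 0.276, 0.778, 0.569 and 0.699 CPM in the exposed and 0.0856, 0, 0.0884, 0.0771 and 0 CPM in the control libraries (log2 fold change 3.20 ± 0.64 SE, adjusted p = 0.00847). All exposed values of both transcripts and all control values of the H4 transcript were under 1 CPM. Of 22 transcripts named for ribosomal proteins 1 rose, 5 without control replicate 2 and 3 without exposed replicate 4, and their summed level was 3.63 to 12.8 CPM in the exposed and 1.63 to 5.24 CPM in the control libraries.

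The Lab Water-239 libraries give values at a higher nominal concentration, against the same 5 control libraries, so the comparisons are set side by side and no overlap is drawn between them. In them 0.646% of 24904 transcripts were DEGs, 11.8% of these higher and the others lower. Leaving out 1 library moved this share by more than 1.5 times in every case. It was 0.254%, 0.342%, 0.279%, 1.27% and 0.404% without Lab Water-239 replicate 1, 2, 3, 4 and 5, and 0.335%, 1.04%, 0.415%, 0.355% and 0.367% without control replicate 1, 2, 3, 4 and 5. The transcripts called higher in the exposed libraries had a median log2 fold change of 3.65 there and 2.49 in Lab Water-239, and those called lower had -4.63 in the exposed libraries and -2.55 in Lab Water-239, against 0.01 over all transcripts tested in Lab Water-239. Both changes are measured from the controls that also chose the transcripts, so their common direction supports nothing. The median standard deviation of log2(CPM + 1) of the higher set was 0.345 in the control, 0.53 in the exposed and 1.09 in the Lab Water-239 libraries. For the lower set it was 0.895 in the control, 0.285 in the exposed and 0.973 in the Lab Water-239 libraries, and over all transcripts tested 0.233 in the control, 0.247 in the exposed and 0.289 in the Lab Water-239 libraries.

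The Lab Water-239 pools were unlike each other. The summed level of the higher set was 12657, 51384, 11893, 8449 and 26712 CPM in replicates 1 to 5, with replicate 2 inside the range of the exposed libraries. The lower set summed to 7389, 1786, 3764, 31632 and 9783 CPM, with replicate 4 inside the range of the controls. Cuticle proteins summed to 3313 to 5958 CPM in the control, 6128 to 7070.4 CPM in the exposed and 2484 to 5443 CPM in the Lab Water-239 libraries. Very long chain fatty acid synthesis summed to 537, 162, 238, 2482 and 240.5 CPM in Lab Water-239, where replicates 2, 3 and 5 lay within the range of the exposed libraries, replicate 1 above it and replicate 4 within that of the controls.

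**Figure D4:**
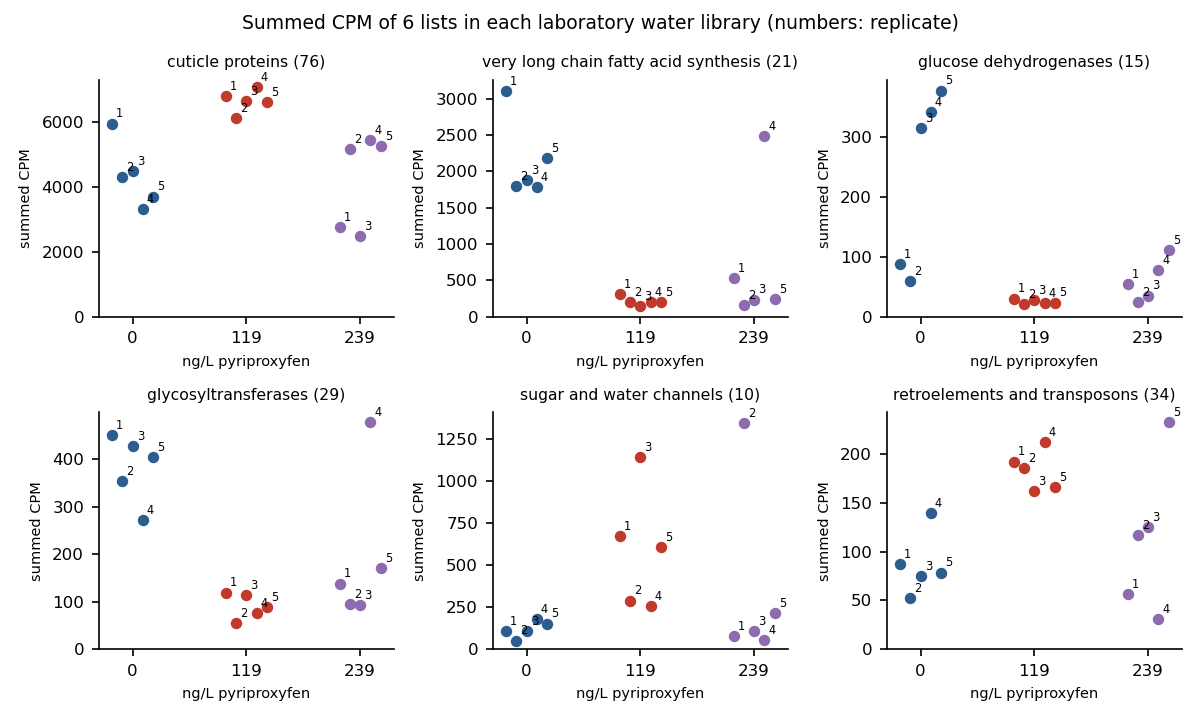
Summed CPM of 6 lists in each control (0 ng/L), exposed and Lab Water-239 library, by rising concentration, with points numbered by replicate. On this unscaled CPM axis, cuticle proteins, retroelements and sugar and water channels are higher in every exposed library than in any control and the other 3 lists lower. For cuticle proteins this separation is lost with TMM scaling. Replicate 2 or 4 of Lab Water-239 stands apart in several panels.

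Single transcripts also differed among the Lab Water-239 pools. The doublesex-related Dapma7bEVm005257t1 had 16.4, 13.8, 13.3, 14.7 and 18.9 CPM in the control, 85.2, 40.9, 162, 50.8 and 136.8 CPM in the exposed and 18.6, 18.5, 16.8, 20.2 and 43.8 CPM in the Lab Water-239 libraries, and replicate 5 was the Lab Water-239 pool farthest above the control range (log2 fold change 0.52 ± 0.23 SE, adjusted p = 0.423 for Lab Water-239). Eclosion hormone, Dapma7bEVm007374t1, had 2.11, 29.4, 1.15, 2.62 and 2.8 CPM in Lab Water-239, high in replicate 2 only (log2 fold change 2.26 ± 0.93 SE, adjusted p = 0.389). Kunitz-type inhibitor Dapma7bEVm003446t1 had 0.864, 0.686, 0.994, 0.973 and 70.7 CPM there, high in replicate 5 only. Some transcripts were low in every pool. Chitinase 5, Dapma7bEVm001857t1, had 0.192, 0.686, 0.153, 0.599 and 2.34 CPM in Lab Water-239, under 3 CPM in all 5 pools (log2 fold change -8.99 ± 1.73 SE, adjusted p = 0.0587). Retroelement transcript Dapma7bEVm009932t1 had 0.192, 0.114, 0, 0.898 and 0.0667 CPM, likewise low in every pool, and this change was called (log2 fold change -7.81 ± 0.93 SE, adjusted p = 0.00742). The elongase Dapma7bEVm028574t1 had 47.4, 0, 0.612, 254 and 0 CPM in Lab Water-239, with replicates 1 and 4 above the others (log2 fold change -2.56 ± 1.91 SE, adjusted p = 0.637).

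The same nominal concentration was tested in water from 6 wetlands, in libraries that share none with the laboratory comparison. The pools of a wetland treatment shared its water, and the fit had no wetland term. Its p-values therefore mix the spread between wetlands with that between pools, and treat the pools as independent. In wetland water 291 of 26166 transcripts (1.11%) were DEGs, 49.8% of these higher and the others lower in the spiked wetland libraries. With wetland as a covariate 1.18% were DEGs. Laboratory DEGs called in wetland water numbered 24, which was 2.02% of the laboratory and 8.25% of the wetland DEGs, and 8 of these had the same direction in both. The higher laboratory DEGs had a median log2 fold change of -0.25 in wetland water and the lower ones 0.70, against 0.02 over all transcripts tested there.

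The difference itself was tested as the laboratory change minus the wetland change, again without a wetland term. It passed the adjusted p for 2245 of 26228 transcripts (8.56%) and both limits for 1376 (5.25%). With wetland as a covariate it passed both limits for 5.67%. Of the laboratory DEGs, 970 of 1186 passed the adjusted p, 276 of the 401 higher and 694 of the 785 lower. Since the laboratory DEGs were chosen for a large laboratory change, these shares describe them and test nothing further. By list the same count was 40 of 76 cuticle proteins, 17 of 21 transcripts of very long chain fatty acid synthesis, 20 of 34 retroelements and 9 of 10 of the hormone and moult list.

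Among hormone and moult transcripts, the doublesex-related Dapma7bEVm005257t1 had 16.1 to 242 CPM (median 29.0) in spiked wetland libraries and 8.28 to 297 CPM (median 55.9) in unspiked ones (log2 fold change -0.67 ± 0.37 SE, adjusted p = 0.224), and the laboratory change exceeded the wetland change by 3.22 ± 0.94 SE on the log2 scale (adjusted p = 0.0196). P450 305a1, Dapma7bEVm007241t1, had a log2 fold change of 3.73 in laboratory water and -1.35 in wetland water (difference 5.09 ± 1.33 SE, adjusted p = 0.00944). For dHR96, Dapma7bEVm009766t1, the log2 fold change was -4.87 in laboratory water and 0.04 in wetland water (difference -4.89 ± 0.97 SE, adjusted p = 0.00117). Hormone receptor hr3, Dapma7bEVm028386t1, was at 0.715 to 7.4 CPM (median 2.94) in spiked and 0.212 to 14.96 CPM (median 2.87) in unspiked wetland libraries, and its difference was -4.44 ± 1.02 SE (adjusted p = 0.00348). Retinoid x receptor, Dapma7bEVm005219t1, was the exception, with a difference of -0.31 ± 0.35 SE (adjusted p = 0.728).

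Transcripts outside that list behaved in more than one way. Cuticular protein 27, Dapma7bEVm011304t1, had 0.213 to 396 CPM (median 21.9) in spiked and 0.237 to 691 CPM (median 179.7) in unspiked wetland libraries, so that single unspiked wetland libraries, and no spiked one, reached the range of the exposed laboratory libraries (difference 10.44 ± 2.17 SE, adjusted p = 0.0017). Cathepsin L Dapma7bEVm010066t1 fell in both waters, with log2 fold changes of -2.73 in laboratory and -2.96 in wetland water (adjusted p = 8.12e-09), and the difference was 0.23 ± 0.74 SE (adjusted p = 0.972). Histone H3.2, Dapma7bEVm008245t1, also fell in both, with log2 fold changes of -6.11 in laboratory and -4.72 in wetland water (adjusted p = 5.8e-10), with a difference of -1.41 ± 1.37 SE (adjusted p = 0.66). Vitellogenin-1 precursor, Dapma7bEVm000343t1, fell in wetland water (log2 fold change -3.70 ± 0.38 SE, adjusted p = 3.28e-10) and was not called in laboratory water, but the difference was not called either (2.27 ± 0.86 SE, adjusted p = 0.0919).

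**Figure D5:**
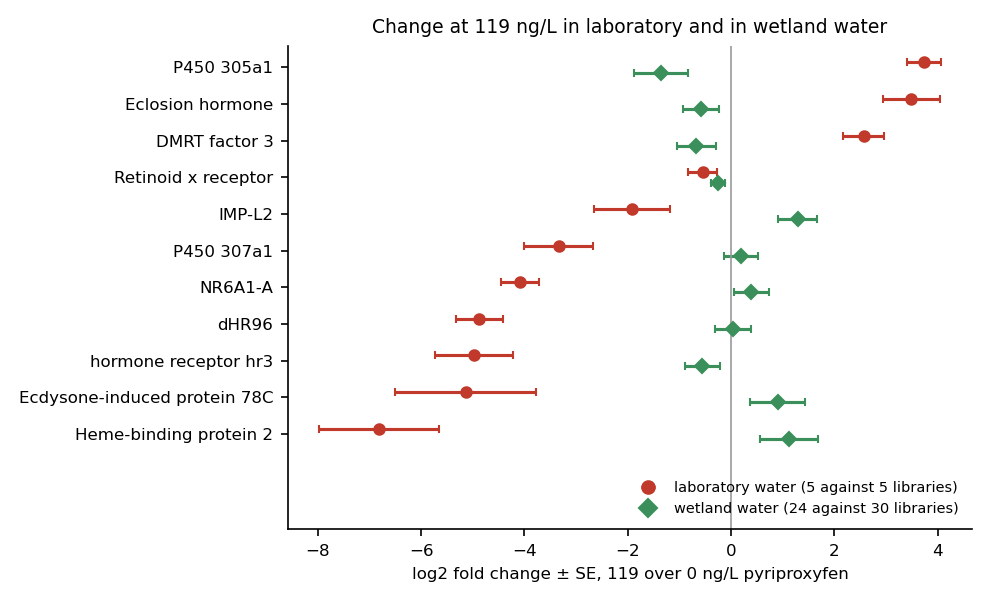
Fitted log2 fold change (exposed over control, spiked over unspiked) ± SE of the 10 hormone and moult signalling transcripts and heme-binding protein 2 in laboratory water (red circles, 5 against 5 libraries) and wetland water (green diamonds, 24 against 30). Laboratory values run from -6.81 to 3.73, and wetland values from -1.35 to 1.28.

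The SCSU controls, taken over all their season labels, show how far these transcripts vary in laboratory animals without pyriproxyfen. A limit is that they belong to another experiment, for which the study names another genetic background. All 10 laboratory libraries lay within the SCSU range for 429 of the 1186 DEGs (36.2%), against 50.2% of all transcripts tested. The summed level of the higher DEGs was 1957 to 63487 CPM in the SCSU controls and that of the lower DEGs 3647 to 85902 CPM, so that the first range took in every exposed library and 4 of the 5 controls, and the second every control and no exposed library. The doublesex-related Dapma7bEVm005257t1 had 8.09 to 298 CPM (median 25.7) there, eclosion hormone Dapma7bEVm007374t1 had 0.0898 to 35.2 CPM (median 7.72) and chitinase 5 Dapma7bEVm001857t1 had 0.277 to 1624 CPM (median 5.85). P450 305a1, Dapma7bEVm007241t1, had 0.409 to 25.4 CPM (median 2.33), below all 5 exposed libraries.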

How the data were processed

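RNA was measured in whole-body pools of neonates. The authors made strand-specific messenger RNA libraries, trimmed reads with Trimmomatic, checked them with FastQC and quantified them against reference transcripts of the species with kallisto (versions and transcript build not given in the sources used here). They deposited one table of estimated counts per transcript and library, without normalization. Kallisto divides reads between near-identical transcripts, so counts of close copies are uncertain. No column of the authors' own comparisons was used.

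Estimated counts were rounded to whole numbers (31.6% of the values of the 10 libraries were not whole). Of 29127 transcripts, 2871 that lacked variance in the wetland or the stormwater experiment, or in both, were left out, as in the study's methods, and 26256 were kept. Each comparison was fitted to its own libraries with edgeR 4.0.16 in R 4.3.3 (TMM scaling, glmQLFit with robust estimation, quasi-likelihood test, Benjamini-Hochberg adjustment over all transcripts with a count), without covariates. SE is the absolute log2 fold change divided by the square root of F. Every adjusted p in the text is from these fits. CPM were computed on the total of the rounded counts. TMM factors of the 10 libraries were 0.929 to 1.14. A transcript at 0 in a whole group was given as a bound against 3 counts in the library with the highest such limit. No 2 of the libraries agreed within sampling noise (lowest chi-square per degree of freedom 23.2). The fitting code was tested on simulated data.

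The members, lists, named transcripts and tests were chosen with earlier results of these data known. Named were all hormone and moult transcripts, the 5 largest rises and 5 largest falls among non-overlapping DEGs of at least 10 CPM, of each list the 2 members with the most counts and the 2 with the smallest p, and 2 transcripts the study discusses, and not every one is printed. Alternatives were DESeq2 1.42.0, an expression filter, median-ratio size factors, a replicate block, each library left out, both libraries with a sequencing sample number above 60 left out, all 69 libraries of the wetland experiment in one fit, a lower fold limit and edgeR without robust estimation, the last chosen after seeing the data. The study used DESeq2. Its removal of variance between the wetland and stormwater experiments was left out, as the deposited values precede it.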

Additional observations from a re-analysis of the deposited data

Results flagged for a closer look

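Among 5 libraries of a group, a highest or lowest value was singled out where its gap to the nearest other library took up more than 0.71 of the group's range on the log2(CPM + 1) scale. This was examined for the 69 transcripts printed or used as tissue markers, in the Lab Water-239, exposed and control groups that had a library above 3 counts, which made 185 groups, and it happened 22 times. Chance gives about 1 such case in 20 groups, and the transcripts share libraries.

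Of the Lab Water-239 libraries, replicate 4 stood above the other 4 pools for Dapma7bEVm003949t1 (cuticular protein, 16.3 CPM), Dapma7bEVm011550t1 (glucosamine-6-phosphate isomerase, 167 CPM), Dapma7bEVm003644t1 (melanization protease, 6.73 CPM), Dapma7bEVm010156t1 (Cral/trio domain protein, 19.2 CPM), Dapma7bEVm007114t1 (superoxide dismutase, 5.99 CPM), Dapma7bEVm011651t1 (geranylgeranyl pyrophosphate synthase, 2.62 CPM) and Dapma7bEVm009932t1 (reverse transcriptase, 0.898 CPM). Each of these transcripts was lower in the exposed libraries than in the controls. Replicate 2 of Lab Water-239 stood above the others for Dapma7bEVm007374t1 (eclosion hormone, 29.4 CPM), Dapma7bEVm027964t1 (aromatic-L-amino-acid decarboxylase, 29.9 CPM) and Dapma7bEVm030404t1 (retroviral polyprotein, 4.46 CPM). Replicate 5 of Lab Water-239 stood above the others for the Kunitz-type inhibitors Dapma7bEVm027813t1 (14.7 CPM) and Dapma7bEVm003446t1 (70.7 CPM), for Dapma7bEVm011166t1 (conserved protein, 94.0 CPM) and for Dapma7bEVm005257t1 (doublesex-related factor, 43.8 CPM). Replicate 1 of Lab Water-239 stood above the others for Dapma7bEVm015483t1 (IMP-L2, 46.7 CPM). In the exposed group the only case was a low replicate 2 for Dapma7bEVm030404t1 (2.90 CPM).

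Among the controls, replicate 2 was singled out as low for Dapma7bEVm007241t1 (P450 305a1, 5.64 CPM), Dapma7bEVm009766t1 (dHR96, 27.0 CPM) and Dapma7bEVm000814t1 (chorion peroxidase, 13.3 CPM). Control replicate 1 was singled out as high for Dapma7bEVm015483t1 (IMP-L2, 198 CPM), Dapma7bEVm015400t1 (cuticular protein, 1513 CPM) and Dapma7bEVm029133t1 (alpha skeletal muscle actin, 0.856 CPM).

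The change differed between laboratory and wetland water, by edgeR's test of the difference, for 1376 transcripts. Among the hormone and moult transcripts the laboratory change minus the wetland change on the log2 scale was 5.09 for Dapma7bEVm007241t1, 4.04 for Dapma7bEVm007374t1 and 3.22 for Dapma7bEVm005257t1. It was -3.22 for Dapma7bEVm015483t1, -3.52 for Dapma7bEVm010925t1, -4.44 for Dapma7bEVm028386t1, -4.47 for Dapma7bEVm010556t1, -4.89 for Dapma7bEVm009766t1 and -6.02 for Dapma7bEVm004624t1. For heme-binding protein 2, Dapma7bEVm001221t1, it was -7.89.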

How the results depend on the processing

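The comparison of exposed with control libraries (1186 DEGs, 4.77% of transcripts tested) gave 5.99% with DESeq2, 6.14% of 16134 transcripts with an expression filter, 4.77% with median-ratio size factors, 3.33% without both libraries of sample number above 60, 5.13% without robust estimation (chosen after seeing the data), 4.51% with all 69 libraries in one fit and 3.74% to 5.71% with 1 library left out. With an absolute log2 fold change above 1 in place of 2 it was 7.38%. The groups share replicate numbers, but the pools of each treatment were divided at random and the study states no pairing. Deviations of same-numbered libraries from their group means had correlations of 0.177, -0.325, -0.107, 0.454 and -0.383, too few to decide on a pairing. A replicate block gave 3.57% for the exposed against control comparison and 0.715% for Lab Water-239. The Lab Water-239 comparison (0.646%) gave 2.32% with DESeq2 (29.4% of these higher, against 11.8% with edgeR), 0.24% with all 69 libraries in one fit and 0.254% to 1.27% with 1 library left out. In wetland water (1.11%) the filter gave 0.752% of 17145 transcripts. Transcripts that differed between the waters (5.25%) were 4.11% to 5.31% with 1 library left out. Of 1688 values of named transcripts under an alternative, 1578 kept their direction and call, 70 were no longer called, 39 became called and 1 changed sign. That was Dapma7bEVm010971t1, a serine protease that was not called, at -0.87 to 0.015 on the log2 scale with 1 library left out (0.015 without control replicate 4). Of 546 list counts 475 stayed within 1.5 times, and the 21 summed levels stayed within 1 SD under TMM scaling. Under that scaling the cuticle protein sums of the exposed and control libraries overlapped. The first principal component carried 45.4% of the variance with a pseudocount of 0.1. The cause of these differences was not tested. Limits are pools drawn from the mixed animals of each treatment, a laboratory control without the carrier, names taken from the study's tables, and the limit of 0.213 to 0.414 CPM behind a count of 0.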
